A study of Mus musculus with 15 samples.

Results

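Transcripts of amino acid transporter genes were examined across 5 conditions of mouse embryonic stem cells (mESCs). The genes were chosen by name alone: every gene symbol in the count files of the form Slc followed by 1, 6, 7, 36, 38 or 43, the letter a and a number. This gave 57 genes of 23412 listed, of which 7 belonged to the Slc1 family, 17 to Slc6, 15 to Slc7, 4 to Slc36, 11 to Slc38 and 3 to Slc43. RNA-seq of polyA transcripts was performed in 15 libraries of v6.5 mESCs, a male line grown on gelatin, with 3 replicates in each condition. The conditions were wild-type cells with siGLO, wild-type cells with siStag1, Stag1-/- cells with siGLO, Stag2-/- cells with siGLO, and Stag2-/- cells with siStag1. STAG1 and STAG2 are alternative subunits of cohesin, the ring complex that shapes chromosome loops, siGLO is a transfection control and siStag1 is an siRNA pool against Stag1. All 15 libraries received 50 nM of siGLO or siStag1 and were collected after 48 h, so that every library, wild type included, came from transfected cells. Each knockout genotype was a single CRISPR clone, so that a difference between a knockout and wild type cannot be told apart from a difference between that clone and its parent line. The 3 replicates of a condition came from 1 line, and p-values measure the spread between these samples.

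The 6 families carry amino acids and related small molecules across membranes. Slc1 transporters take up glutamate or small neutral amino acids with sodium. Slc6 transporters use sodium and chloride to take up neurotransmitters, taurine, creatine, glycine, proline and branched-chain amino acids. The Slc7 family has cationic amino acid transporters, which carry arginine and lysine, and light chains, exchangers that need a heavy chain such as SLC3A2 to reach the membrane. Slc38 transporters carry glutamine and other small neutral amino acids, Slc36 transporters move small amino acids with protons, also out of lysosomes, and Slc43 holds facilitative carriers of large neutral amino acids. Mouse ESCs are known for a high demand for glutamine and threonine, and several of these genes are induced by the amino acid response through ATF4.

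The total count on genes was 14982560 to 19070126 per library. Each library's counts of a gene were divided by its library size scaled with TMM and brought to a common depth of 17409359 counts, which gives the normalized read counts below. Stag1 was at 353 to 517 normalized read counts in wild-type siStag1 and 629 to 781 in Stag2-/- siStag1, against 2012 to 2288 in wild-type siGLO. Stag2 was at 663 to 739 in Stag2-/- siGLO against 2329 to 2334. In Stag1-/- siGLO the Stag1 level was 1826 to 2368, which checks no label because reads outside the deleted part still count. All 10 mESC markers were above 3 counts in every library, with a summed level of 116728 to 122447 in wild-type siGLO. It was below this range in every other condition, at 109059 to 115655 in wild-type siStag1, 95955 to 111328 in Stag1-/- siGLO, 90180 to 108288 in Stag2-/- siGLO and 66334 to 85173 in Stag2-/- siStag1. The 6 primitive endoderm markers were all detected in every condition. Their summed level was 3525 to 3902 in wild-type siGLO and 3421 to 3801 in wild-type siStag1, against 307 to 488 in Stag1-/- siGLO, 650 to 1044 in Stag2-/- siGLO and 739 to 956 in Stag2-/- siStag1. The summed level of the 5 neural markers was 2071 to 2906 in wild-type siGLO, 2432 to 2748 in Stag1-/- siGLO, 3085 to 4791 in Stag2-/- siGLO and 3506 to 5939 in Stag2-/- siStag1. For the 5 trophoblast markers it was 1040.1 to 1213, 921 to 1109, 577 to 799 and 305 to 451 in the same order, and 743 to 824 in wild-type siStag1. The 6 mesoderm markers summed to 233 to 332 in wild-type siGLO and 292 to 1369 in Stag2-/- siGLO, against 258 to 385 in Stag2-/- siStag1 and 251 to 298 in Stag1-/- siGLO. The 5 fibroblast markers summed to 828 to 1109 in wild-type siGLO and 401 to 695 over the knockout conditions. In wild-type siStag1 the endoderm, neural and fibroblast sums overlapped those of wild-type siGLO, as the neural sum of Stag1-/- siGLO did. The part of these differences in the results was not tested. In bulk samples, fewer cells of a type and less RNA per cell cannot be told apart.

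In wild-type siGLO cells, amino acid transporter transcripts were dominated by a few genes. Levels between genes were compared as CPM, the TMM-scaled counts as a rate per library, divided by the kilobases of exon. Slc7a5, the light chain LAT1 that imports leucine and other large neutral amino acids, had the highest level (85.2 ± 10.9 (SD, n = 3)) and made up 20.3% of the summed level of the 57 genes. Slc38a4, a carrier of small neutral amino acids that is imprinted in mouse, followed at 59.3 ± 4.68 (SD, n = 3), and the ranges over the 3 libraries did not meet. The next genes, Slc1a5 (37.7 ± 2.55), Slc7a3 (33.7 ± 9.20) and Slc38a2 (32.1 ± 6.14) (SD, n = 3), had overlapping ranges. These encode the glutamine carrier ASCT2, the arginine carrier CAT3 and the carrier SNAT2. With Slc6a6, the taurine transporter (23.4 ± 2.31 (SD, n = 3)), the 6 genes came to 64.8% of the summed level. Slc38a10, Slc6a8, Slc7a6 and Slc7a7 lay between 16.9 and 21.8 with overlapping ranges between neighbours, and all other genes lay below 12. With the length of the longest transcript in place of all exons, the order of the first 3 genes was the same, Slc38a2 and Slc7a3 stood level at 46.4, and Slc38a1 moved from place 13 to place 9.

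**Figure D1:**
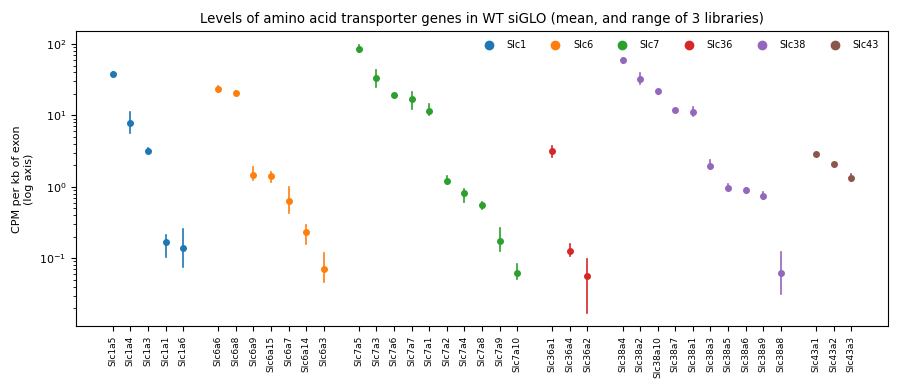
Level of amino acid transporter genes in wild-type siGLO, in CPM per kilobase of exon on a log axis, by family (colour) and in order of level, for genes above 0.05, with 1 gene not shown. Points are means and lines the range of 3 libraries. Slc7a5, at 85.2, is the highest, and each family except Slc43 spans more than a factor of 10 between its genes.

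The summed level of the 57 genes had similar means, 419 ± 25.9 (SD, n = 3) CPM per kilobase in wild-type siGLO and 412 to 437 in the other conditions. Single libraries ranged from 372 to 509 in Stag2-/- siGLO (SD 69.3) and from 364 to 501 in Stag2-/- siStag1 (SD 77.7). Below this sum some families differed between conditions, and no family sum was tested. Slc6 was at 46.6 to 51.2 in the wild-type siGLO libraries, 43.7 to 45.5 in wild-type siStag1, 45.8 to 51.5 in Stag1-/- siGLO, 38.1 to 41.3 in Stag2-/- siGLO and 29.8 to 31.2 in Stag2-/- siStag1. The Stag2-/- siStag1 libraries lay below all others. Slc43 was lowest in wild-type siGLO (6.15 to 6.39) and highest in Stag2-/- siStag1 (10.2 to 11.4), with 7.01 to 7.71 in wild-type siStag1, 7.49 to 8.48 in Stag1-/- siGLO and 7.77 to 9.71 in Stag2-/- siGLO. Slc7, the family with the highest sum, was at 170 ± 25.8 in wild-type siGLO, 196 ± 40.8 in Stag2-/- siGLO and 179 ± 46.7 in Stag2-/- siStag1 (SD, n = 3), with overlapping ranges. Slc38 was at 138 to 143 in wild-type siGLO and 151 to 159 in Stag1-/- siGLO, without overlap. Its other ranges met that of wild-type siGLO, as did all ranges of Slc1 and Slc36.

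**Figure D2:**
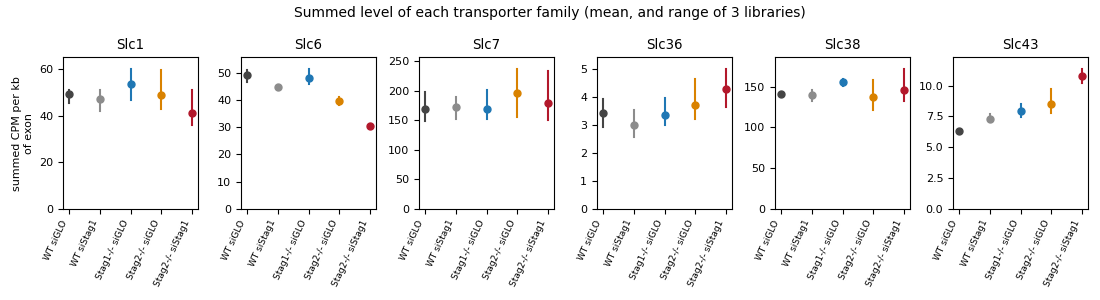
Summed level of the genes of each family, in CPM per kilobase of exon, in the 5 conditions. Points are means and lines the range of 3 libraries, and each axis starts at 0. Slc6 falls to 29.8 to 31.2 in Stag2-/- siStag1 and Slc43 rises to 10.2 to 11.4, whereas the ranges of Slc7 overlap.

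Of the 57 genes, 39 passed the filter on low counts and were tested, in a fit over all 14508 genes that passed it. A gene was called at an adjusted p under 0.1, the threshold of the study. Among the 39, 33 had at least 10 counts in every wild-type siGLO library, and Slc1a2, Slc1a6, Slc6a11, Slc6a17, Slc7a9 and Slc7a11 did not. In Stag1-/- siGLO 12 of the 39 were called, 6 higher and 6 lower than wild-type siGLO, where 20.0% of all genes tested were called. In Stag2-/- siGLO 21 were called, 11 higher and 10 lower, where 28.3% of all genes were. In Stag2-/- siStag1 27 were called, 15 higher and 12 lower, where 43.9% were. These counts rested on the replicates. When replicate 2 was left out of all 5 conditions, an alternative added after the data were seen that leaves 2 libraries in each, the counts were 3, 3 and 19, where 4.73%, 5.02% and 22.6% of all genes tested were called. They were 7, 11 and 20 when replicate 3 was left out (12.5%, 12.6% and 29.5% of all genes), and 11, 25 and 30 when replicate 1 was (18.5%, 34.5% and 46.9%). With the replicate number as a block, 15, 24 and 30 of the 39 were called, where 30.6%, 39.4% and 53.7% of all genes were. Among the 33 genes with at least 10 counts in every wild-type siGLO library, the counts in the full fit were 9 (3 higher, 6 lower), 16 (6 higher, 10 lower) and 22 (10 higher, 12 lower). The other 6 genes entered the test through other conditions, and their differences from wild-type siGLO are given as a description. The median log2 fold change of the 33 genes was 0.02, -0.13 and -0.08 in the same order, and that of the 39 was 0.09, -0.08 and 0.24. The 33 were kept for their level in wild-type siGLO and so lack genes that are low there and high elsewhere. Among the 29 genes with at least 10 counts in all 15 libraries, 8 (3 higher, 5 lower), 14 (6 higher, 8 lower) and 18 (10 higher, 8 lower) were called, and the medians were 0.02, -0.10 and 0.17. The sign of the median in Stag2-/- siStag1 thus differs with the genes kept. For the 33 and the 29 genes no share over all genes kept by the same cut is given. The shares above include genes with lower counts. Over all genes tested the medians were -0.01, 0.01 and 0.01. In wild-type siStag1 none of the 39 genes was called by edgeR or by DESeq2, and 4 had an unadjusted p under 0.05. Of all genes tested, 0.248% were called there by edgeR. With the replicate number as a block edgeR called none of the 39 and 1.63% of all genes. Over these 4 comparisons, which share the wild-type siGLO libraries, 10 genes were never called, 7 were called once, 13 in a pair of comparisons and 9 in 3.

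**Figure D3:**
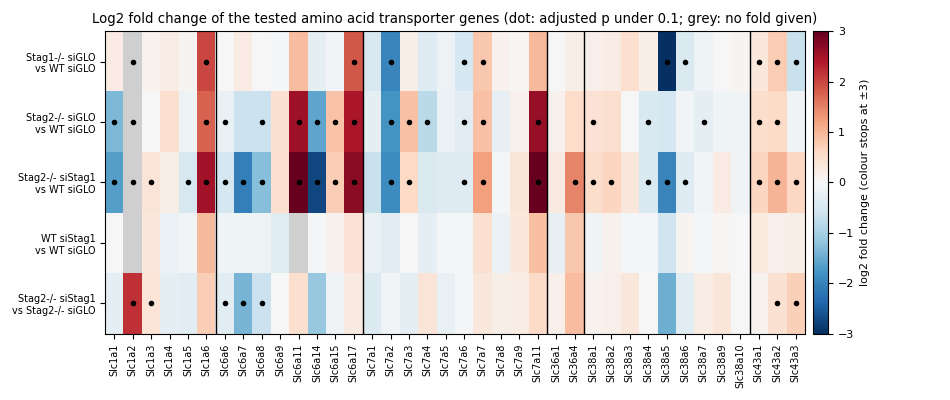
Log2 fold change of the tested genes (columns, by family; 1 gene is not shown) in 5 comparisons (rows), with red for higher and blue for lower. Dots mark an adjusted p under 0.1 and grey cells comparisons with a group at or under 3 counts. The row of wild-type siStag1 holds no dot, and the Slc43 genes are red in most rows.

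Among the Slc7 light chains, Slc7a7 rose and Slc7a6 fell in both knockouts. Slc7a5 did not pass in any comparison of the fit to all libraries without the replicate block. Slc7a11, under 10 reads in some wild-type siGLO libraries, was higher in Stag2-/- cells. Slc7a11 encodes xCT, which brings in cystine in exchange for glutamate. Its normalized read counts were 13.1, 2.03 and 5.81 in wild-type siGLO, 12.8, 14.7 and 12.6 in wild-type siStag1, 21.7, 11.7 and 9.04 in Stag1-/- siGLO, 56.1, 49.6 and 25.3 in Stag2-/- siGLO and 107, 56.2 and 30.3 in Stag2-/- siStag1. The Stag2-/- libraries lay above all wild-type libraries with either siRNA, and the wild-type siGLO libraries held no more than 14 reads each. Slc7a11 was higher in Stag2-/- siGLO (log2 fold change 2.604 ± 0.57; the value after ± is the SE) and in Stag2-/- siStag1 (log2 fold change 3.17 ± 0.56), and in Stag1-/- siGLO the difference was smaller (log2 fold change 0.98 ± 0.62). Without wild-type siGLO replicate 1 these were 3.42, 3.99 and 1.80. Stag1-/- siGLO was lower than Stag2-/- siGLO (log2 fold change -1.63 ± 0.52, adjusted p = 0.0397), a call that was lost without Stag1-/- siGLO replicate 2 or 3 or Stag2-/- siGLO replicate 1 or 2 (adjusted p up to 0.129).

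Slc7a7 encodes y+LAT1, which exchanges cationic for neutral amino acids and sodium. Its counts were 1229, 996 and 699 in wild-type siGLO, 1413, 1563 and 1088 in wild-type siStag1, 2142, 1578 and 1429 in Stag1-/- siGLO, 2559, 1674 and 1147 in Stag2-/- siGLO and 3417, 1778 and 1616 in Stag2-/- siStag1. Replicate 1 was the highest library in 4 of the 5 conditions. The Stag2-/- siGLO range met that of wild-type siGLO, whereas the Stag1-/- siGLO libraries lay above it. Slc7a7 rose in Stag2-/- siStag1 (log2 fold change 1.22 ± 0.30, adjusted p = 0.00501), in Stag2-/- siGLO (log2 fold change 0.88 ± 0.30, adjusted p = 0.0502) and in Stag1-/- siGLO (log2 fold change 0.82 ± 0.30, adjusted p = 0.0849). The call in Stag2-/- siGLO was lost without wild-type siGLO replicate 2 or 3 or Stag2-/- siGLO replicate 1 (adjusted p up to 0.222), and the call in Stag1-/- siGLO without wild-type siGLO replicate 2 or 3 or Stag1-/- siGLO replicate 1 or 2 (adjusted p up to 0.295). Its exons share 232 bp with Oxa1l on the other strand, and without strand in the counting reads of both cannot be told apart there.

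Slc7a6, which encodes the related exchanger y+LAT2, went the other way. It had 1489, 1578 and 1559 in wild-type siGLO, 1438, 1444 and 1534 in wild-type siStag1, 1068, 1151 and 1009 in Stag1-/- siGLO, 1056, 1289 and 1331 in Stag2-/- siGLO and 1133, 1200.3 and 1197 in Stag2-/- siStag1 normalized read counts. Every knockout library lay below every wild-type library. Slc7a6 fell in Stag1-/- siGLO (log2 fold change -0.52 ± 0.09, adjusted p = 0.000963), Stag2-/- siGLO (log2 fold change -0.33 ± 0.09, adjusted p = 0.0159) and Stag2-/- siStag1 (log2 fold change -0.39 ± 0.09, adjusted p = 0.00293). Slc7a6, Slc7a2, Slc7a5 and Slc38a7 lie on chromosome 8, where the median log2 fold change of 710 tested genes was -0.19, -0.20 and -0.22 in the same comparisons. The medians of the 17 other chromosomes that carry a tested transporter gene were -0.05 to 0.12. Against the chromosome median, the difference of Slc7a6 was -0.33, -0.13 and -0.17, and the part of the chromosome-wide shift in it was not tested.

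Slc7a5 had 6311, 5149 and 5046 in wild-type siGLO, 6010.2, 5354 and 4781 in wild-type siStag1, 6017, 4484 and 4377 in Stag1-/- siGLO, 5987, 5055 and 3647 in Stag2-/- siGLO and 5771, 3290.0 and 3489.8 in Stag2-/- siStag1 normalized read counts. The range of each other condition met that of wild-type siGLO, and replicate 1 was highest throughout. In Stag2-/- siStag1 Slc7a5 missed the threshold (log2 fold change -0.40 ± 0.20, adjusted p = 0.144), and the call was gained without Stag2-/- siStag1 replicate 1 (adjusted p = 0.00642). Its heavy chain gene Slc3a2, which is not of the 6 families, had 4348, 3939 and 4098 in wild-type siGLO, 4266, 4205 and 4251 in wild-type siStag1, 3666, 3241 and 3708 in Stag1-/- siGLO, 5008, 3921 and 3152 in Stag2-/- siGLO and 4621, 3184 and 2877 in Stag2-/- siStag1 counts. Stag1-/- siGLO lay below both wild-type groups and overlapped both Stag2-/- groups, and no comparison with wild type passed (log2 fold change -0.22, -0.04 and -0.21 in Stag1-/- siGLO, Stag2-/- siGLO and Stag2-/- siStag1). The exception was Stag2-/- siStag1 without its replicate 1 (adjusted p = 0.0191). Slc7a8, the light chain LAT2, and Slc7a9, the cystine and cationic exchanger of kidney, stayed at low levels of 34.5 to 65.9 and 5.20 to 14.7 normalized read counts, and neither was called in any comparison.

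The promoters of Slc7a11 and Slc7a7 are shown beside that of Slc1a4, a serine and alanine carrier, since only these 3 of the 39 transporter genes with an entry in the RefSeq promoter set (GRCm38.p6, 250 bases before to 50 bases after the start) held the letters TGATGNAA on either strand, the core of the C/EBP-ATF response element that ATF4 binds. Over all 27025 genes with an entry, 4.51% held it, against 7.69% of the transporter genes with an entry. These 39 genes are not the same set as the 39 tested. No entry existed for 18 transporter genes, which were not scanned, among them Slc7a5, Slc7a3, Slc7a2, Slc1a5, Slc38a1, Slc6a6 and Slc6a8. The windows run 5′ to 3′ on the strand of the gene, with each match in capitals. Slc7a11 lies on the minus strand at chr3:50443564-50443863, Slc1a4 on the minus strand at chr11:20332664-20332963 and Slc7a7 on the minus strand at chr14:54417895-54418194.
Slc7a11: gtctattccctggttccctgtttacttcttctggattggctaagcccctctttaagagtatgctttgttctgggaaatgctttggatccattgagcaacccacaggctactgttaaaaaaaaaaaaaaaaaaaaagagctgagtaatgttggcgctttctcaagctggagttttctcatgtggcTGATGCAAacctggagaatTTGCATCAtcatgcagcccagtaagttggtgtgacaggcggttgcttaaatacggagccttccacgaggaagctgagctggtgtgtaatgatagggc
Slc1a4: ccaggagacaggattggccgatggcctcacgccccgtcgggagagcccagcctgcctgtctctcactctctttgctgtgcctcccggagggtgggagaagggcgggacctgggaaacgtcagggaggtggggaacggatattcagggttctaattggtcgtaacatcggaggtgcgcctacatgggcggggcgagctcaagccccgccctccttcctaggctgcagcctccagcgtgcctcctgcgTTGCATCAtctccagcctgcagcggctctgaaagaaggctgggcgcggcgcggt
Slc7a7: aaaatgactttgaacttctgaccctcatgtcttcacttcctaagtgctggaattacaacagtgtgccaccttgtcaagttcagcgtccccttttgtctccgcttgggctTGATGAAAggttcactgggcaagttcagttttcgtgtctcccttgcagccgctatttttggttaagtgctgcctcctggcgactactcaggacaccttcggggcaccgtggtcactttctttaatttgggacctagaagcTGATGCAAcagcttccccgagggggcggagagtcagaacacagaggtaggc
The Slc7a11 window held a match on each strand, beginning 66 and 47 bases before the start, that of Slc1a4 held 1 match on the other strand, 4 bases before the start, and that of Slc7a7 held 2 matches on its own strand, 141 and 1 bases before it. A second Slc7a7 window, for a start further into the gene, overlaps the first and holds the same match, 243 bases before that start. A match describes these letters and is not a measured binding site. Slc1a4 itself was at 765, 393 and 461 in wild-type siGLO, 561, 378 and 500.1 in wild-type siStag1, 775, 521 and 610.2 in Stag1-/- siGLO, 912, 809 and 528 in Stag2-/- siGLO and 924, 451 and 452 in Stag2-/- siStag1 normalized read counts. Its replicate 1 was the highest library in every condition. Without the replicate block Slc1a4 passed in no comparison (log2 fold change 0.23, 0.47 and 0.17 in Stag1-/- siGLO, Stag2-/- siGLO and Stag2-/- siStag1), but Stag2-/- siGLO passed without wild-type siGLO replicate 1 (adjusted p = 0.0731).

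Among the cationic amino acid transporters, Slc7a2 fell in every knockout condition and Slc7a3 rose in Stag2-/- cells. Slc7a2 encodes CAT2, an arginine carrier known from liver and activated macrophages. Its normalized read counts were 175, 181 and 227 in wild-type siGLO, 164, 134 and 164 in wild-type siStag1, 40.4, 37.0 and 70.5 in Stag1-/- siGLO, 59.3, 47.4 and 60.2 in Stag2-/- siGLO and 55.2, 46.8 and 54.6 in Stag2-/- siStag1. All 9 knockout libraries lay below all 6 wild-type libraries. The log2 fold change of Slc7a2 was close to -2 in Stag1-/- siGLO (log2 fold change -1.97 ± 0.23, adjusted p = 2.64e-05), Stag2-/- siGLO (log2 fold change -1.80 ± 0.23, adjusted p = 5.34e-05) and Stag2-/- siStag1 (log2 fold change -1.89 ± 0.23, adjusted p = 1.05e-05). Slc7a2 is on chromosome 8, and against the chromosome median its differences were -1.78, -1.60 and -1.67. For its 10 tested neighbours within 1 Mb the median log2 fold changes were -0.37, -0.48 and -0.24.

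Slc7a3 encodes CAT3, the most abundant cationic carrier of these cells. It had 2871, 2125 and 1672 in wild-type siGLO, 2534, 2329.7 and 1905 in wild-type siStag1, 2913, 2099 and 2464 in Stag1-/- siGLO, 4671, 3948 and 3617 in Stag2-/- siGLO and 3724, 3309 and 3017 in Stag2-/- siStag1 normalized read counts. All 6 Stag2-/- libraries lay above all wild-type siGLO libraries, while Stag1-/- siGLO overlapped wild type. Slc7a3 rose in Stag2-/- siGLO (log2 fold change 0.88 ± 0.17, adjusted p = 0.00226) and in Stag2-/- siStag1 (log2 fold change 0.59 ± 0.17, adjusted p = 0.0132), and it was lower in Stag1-/- siGLO than in Stag2-/- siGLO (log2 fold change -0.71 ± 0.17, adjusted p = 0.00921).

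Slc7a1 encodes CAT1, the widely expressed arginine and lysine carrier. Its counts were 2931, 2075 and 2009 in wild-type siGLO, 2452, 1874 and 1806 in wild-type siStag1, 2191, 1377 and 1446 in Stag1-/- siGLO, 2866, 1761 and 1161 in Stag2-/- siGLO and 2359.6, 977 and 1048 in Stag2-/- siStag1. Replicate 1 was far above the others in most conditions, and the groups overlapped. Slc7a1 was not called against wild-type siGLO without the replicate block (log2 fold change -0.68 ± 0.33, adjusted p = 0.119 in Stag2-/- siStag1), but was called in that comparison without Stag2-/- siStag1 replicate 1 (adjusted p = 0.00432). With the block it was called lower in Stag1-/- siGLO, Stag2-/- siGLO and Stag2-/- siStag1 (adjusted p = 0.0222, 0.0941 and 0.000554, edgeR). As a description chosen after the values were seen, the ratio of the per-kilobase level of Slc7a3 to that of Slc7a1 was 2.53 to 3.12 in the wild-type siGLO libraries, 3.15 to 3.79 in wild-type siStag1, 4.05 to 5.19 in Stag1-/- siGLO, 4.97 to 9.49 in Stag2-/- siGLO and 4.81 to 10.3 in Stag2-/- siStag1. In this ratio every knockout library lay above every wild-type library. Slc7a4, a relative of the cationic carriers with little known transport, had 26.5 to 42.2 counts in Stag2-/- siGLO against 44.9 to 67.1 in wild-type siGLO (log2 fold change -0.81 ± 0.33, adjusted p = 0.0913). This call was lost without wild-type siGLO replicate 2 or 3 or Stag2-/- siGLO replicate 1 or 2 (adjusted p up to 0.241), and Slc7a4 shares 554 bp of exon with P2rx6 on the other strand. In Stag2-/- siStag1 Slc7a4 had 23.7 to 65.5 counts and was not called (log2 fold change -0.43).

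Glutamate carriers of the Slc1 family were low in these cells apart from Slc1a3, which rose in Stag2-/- siStag1. Slc1a2 and Slc1a6 are among the genes under 10 reads in wild-type siGLO libraries that entered the test through other conditions. Slc1a3, the glial carrier GLAST, was at 453 to 512 normalized read counts in wild-type siGLO, 562 to 617 in wild-type siStag1, 481 to 542 in Stag1-/- siGLO, 458 to 486 in Stag2-/- siGLO and 567 to 696 in Stag2-/- siStag1. Both siStag1 conditions lay above wild-type siGLO, but in wild-type siStag1 the difference did not pass (log2 fold change 0.31 ± 0.10, adjusted p = 0.435). It rose in the last against wild-type siGLO (log2 fold change 0.39 ± 0.10, adjusted p = 0.00568) and against Stag2-/- siGLO (log2 fold change 0.41 ± 0.10, adjusted p = 0.0277), the latter call being lost without Stag2-/- siStag1 replicate 2 (adjusted p up to 0.148). Slc1a2, the astrocyte carrier GLT-1, had at most 1 read in each wild-type siGLO library, 0.967 to 8.28 normalized read counts in wild-type siStag1, 3.94 to 11.7 in Stag1-/- siGLO, 7.41 to 27.5 in Stag2-/- siGLO and 41.4 to 111 in Stag2-/- siStag1. All libraries of the last lay above those of the other conditions. It was called in each knockout condition against wild-type siGLO, for which no fold is given, and in Stag2-/- siStag1 against Stag2-/- siGLO. Since it passed the filter through the Stag2-/- siStag1 libraries, these differences are a description, and the last call was lost without Stag2-/- siGLO replicate 1 or 2 or Stag2-/- siStag1 replicate 3 (adjusted p up to 0.224).

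Slc1a6, the Purkinje cell carrier EAAT4, had 2.81 to 9.68 counts in wild-type siGLO, 17.5 to 25.6 in Stag1-/- siGLO, 10.8 to 31.7 in Stag2-/- siGLO and 16.8 to 44.5 in Stag2-/- siStag1. As a description, its log2 fold changes were 2.01 ± 0.57, 1.78 ± 0.58 and 2.53 ± 0.56. Without wild-type siGLO replicate 3 they were 2.81, 2.57 and 3.32, and without Stag2-/- siGLO replicate 3 the second was 1.09. The call in Stag1-/- siGLO was lost without wild-type siGLO replicate 1 or 2 (adjusted p up to 0.107), and that in Stag2-/- siGLO without wild-type siGLO replicate 1 or 2 or Stag2-/- siGLO replicate 3 (adjusted p up to 0.23). Slc1a1, the neuronal carrier EAAC1, fell to 4.23 to 15.1 counts in Stag2-/- siGLO and 6.07 to 9.86 in Stag2-/- siStag1 from 14.96 to 30.5 in wild-type siGLO (log2 fold change -1.34 and -1.64; adjusted p = 0.0367 and 0.00788). The former call was lost without wild-type siGLO replicate 2 or 3 or Stag2-/- siGLO replicate 1 (adjusted p up to 0.136). Its exons share 2631 bp with 4430402I18Rik on the other strand. In Stag1-/- siGLO Slc1a1 kept 25.6 to 34.4 counts and was higher than in Stag2-/- siGLO (log2 fold change 1.57 ± 0.42, adjusted p = 0.017).

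The glutamine carrier gene Slc1a5 had 2668, 2603 and 2951 in wild-type siGLO, 2597, 2314 and 2843 in wild-type siStag1, 2790.4, 2537 and 3415 in Stag1-/- siGLO, 3100.1, 2127 and 2251 in Stag2-/- siGLO and 2409, 1770.3 and 1725 in Stag2-/- siStag1 normalized read counts. The Stag2-/- siStag1 libraries lay below all wild-type siGLO libraries, the other conditions overlapped them, and Slc1a5 fell there (log2 fold change -0.48 ± 0.15, adjusted p = 0.0234). In the single knockouts its log2 fold change was 0.09 ± 0.15 (Stag1-/- siGLO) and -0.14 ± 0.15 (Stag2-/- siGLO), and neither passed.

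In the Slc38 family, Slc38a1 rose and Slc38a4 fell in Stag2-/- cells, while the genes called in Stag1-/- siGLO were Slc38a5 and Slc38a6. Slc38a4 had 3999, 4614 and 4586 in wild-type siGLO, 3853, 4655 and 4189 in wild-type siStag1, 4783, 5463 and 4891 in Stag1-/- siGLO, 3687, 3109.9 and 2764 in Stag2-/- siGLO and 3731, 3030.0 and 2888 in Stag2-/- siStag1 normalized read counts. The 6 Stag2-/- libraries were below all others, and the Stag1-/- siGLO libraries were the highest. Slc38a4 fell in Stag2-/- siGLO (log2 fold change -0.47 ± 0.12, adjusted p = 0.0114) and Stag2-/- siStag1 (log2 fold change -0.45 ± 0.12, adjusted p = 0.0069) and was higher in Stag1-/- siGLO than in Stag2-/- siGLO (log2 fold change 0.66 ± 0.12, adjusted p = 0.00112).

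Slc38a1 encodes SNAT1, a glutamine carrier of neurons and growing cells. It was at 3917, 3081 and 2908 in wild-type siGLO, 3481, 3057 and 2736 in wild-type siStag1, 4089.6, 3296 and 3591 in Stag1-/- siGLO, 4939, 4490.4 and 3937 in Stag2-/- siGLO and 5733, 4055 and 4547 in Stag2-/- siStag1 counts. Both Stag2-/- conditions lay above wild-type siGLO without overlap. Slc38a1 rose in Stag2-/- siStag1 (log2 fold change 0.53 ± 0.14, adjusted p = 0.00784) and in Stag2-/- siGLO (log2 fold change 0.43 ± 0.14, adjusted p = 0.0412), the latter call being lost without wild-type siGLO replicate 2 or 3 or Stag2-/- siGLO replicate 1 (adjusted p up to 0.159). The median log2 fold change of its 8 tested neighbours within 1 Mb was 0.35 in Stag2-/- siGLO and 0.32 in Stag2-/- siStag1. Among these neighbours were Slc38a2 (log2 fold change 0.49 and 0.65) and Slc38a4 (-0.47 and -0.45). For the 9 tested neighbours of Slc38a2 the medians were 0.21 and 0.06.

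Slc38a2 encodes SNAT2, the carrier that cells induce when amino acids run short. Its counts were 6004, 4640.3 and 4189 in wild-type siGLO, 6229, 5436 and 4565 in wild-type siStag1, 6274, 5525 and 5632 in Stag1-/- siGLO, 9280.1, 5994 and 5588 in Stag2-/- siGLO and 10483, 6599.8 and 6272 in Stag2-/- siStag1. Replicate 1 was highest in every condition, and 2 libraries of Stag2-/- siGLO lay within the wild-type siGLO range. Slc38a2 rose in Stag2-/- siStag1 (log2 fold change 0.65 ± 0.21, adjusted p = 0.0208), a call lost without Stag2-/- siStag1 replicate 1 (adjusted p up to 0.127). It missed the threshold in Stag2-/- siGLO (log2 fold change 0.49 ± 0.21, adjusted p = 0.103), where it was called without wild-type siGLO replicate 1 or Stag2-/- siGLO replicate 3 (adjusted p down to 0.0544), by DESeq2, with library size alone and with no filter.

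Slc38a6, a member with little known transport, had 130.0, 128 and 109 in wild-type siGLO, 128, 133 and 126 in wild-type siStag1, 97.4, 83.7 and 92.2 in Stag1-/- siGLO, 119.6, 116 and 112 in Stag2-/- siGLO and 108, 88.4 and 81.9 in Stag2-/- siStag1 counts. The Stag1-/- siGLO libraries and those of Stag2-/- siStag1 lay below the wild-type siGLO range. It fell in Stag1-/- siGLO (log2 fold change -0.43 ± 0.16, adjusted p = 0.081), a call lost without wild-type siGLO replicate 1 or 2 or Stag1-/- siGLO replicate 1, 2 or 3 (adjusted p up to 0.213), and in Stag2-/- siStag1 (log2 fold change -0.40 ± 0.16, adjusted p = 0.0572), a call lost without wild-type siGLO replicate 1 or 2 or Stag2-/- siStag1 replicate 2 or 3 (adjusted p up to 0.191). Part of its sequence recurs in other genes, so that its counts are uncertain. Slc38a5, the glutamine carrier SNAT5, was at 34.8 to 42.7 counts in wild-type siGLO, 1.97 to 7.79 in Stag1-/- siGLO, 8.46 to 43.1 in Stag2-/- siGLO and 2.96 to 15.2 in Stag2-/- siStag1. It fell in Stag1-/- siGLO (log2 fold change -3.06 ± 0.63, adjusted p = 0.00389) and Stag2-/- siStag1 (log2 fold change -1.99 ± 0.57, adjusted p = 0.0126), and Stag1-/- siGLO was lower than Stag2-/- siGLO (log2 fold change -2.53 ± 0.65, adjusted p = 0.0133). Without Stag1-/- siGLO replicate 2 the first and the last were -3.69 and -3.16. Slc38a7, which exports glutamine from lysosomes, fell in Stag2-/- siGLO (log2 fold change -0.29 ± 0.09, adjusted p = 0.0246), where its difference from the chromosome 8 median was -0.09. In Stag2-/- siStag1 Slc38a7 was not called (log2 fold change -0.08), with 800 to 818 counts against 820 to 875 in wild-type siGLO. Slc38a3, Slc38a9 (a lysosomal arginine sensor) and Slc38a10 were not called against wild type without the block. Slc38a10 was higher in Stag1-/- siGLO than in Stag2-/- siGLO (log2 fold change 0.19 ± 0.08, adjusted p = 0.0961), a call lost without Stag1-/- siGLO replicate 1 or 2 or Stag2-/- siGLO replicate 1, 2 or 3 (adjusted p up to 0.273).

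In Stag2-/- cells the Slc6 family fell in its most abundant members, Slc6a6 and Slc6a8, and rose in Slc6a15. Slc6a8 encodes the creatine transporter. Its normalized read counts were 1786, 1988 and 1890.3 in wild-type siGLO, 1661, 1671 and 1778 in wild-type siStag1, 2103, 1857 and 1666 in Stag1-/- siGLO, 1356, 1151 and 1124 in Stag2-/- siGLO and 801, 801 and 731 in Stag2-/- siStag1. The libraries fell into 3 separate ranges, with wild type and Stag1-/- siGLO highest, Stag2-/- siGLO between and Stag2-/- siStag1 lowest. Slc6a8 fell in Stag2-/- siGLO (log2 fold change -0.64 ± 0.10, adjusted p = 0.00028) and further in Stag2-/- siStag1 (log2 fold change -1.28 ± 0.10, adjusted p = 1.23e-07), and the step from Stag2-/- siGLO to Stag2-/- siStag1 passed as well (log2 fold change -0.64 ± 0.10, adjusted p = 0.00132). In Stag1-/- siGLO it did not differ from wild type beyond the spread (log2 fold change -0.01 ± 0.10, adjusted p = 0.967), and it was higher there than in Stag2-/- siGLO (log2 fold change 0.63 ± 0.10, adjusted p = 0.000348).

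Slc6a6, the taurine transporter, was at 3128, 3397 and 3805 in wild-type siGLO, 3087, 3143 and 3182 in wild-type siStag1, 3485, 3347 and 3346 in Stag1-/- siGLO, 2972, 2772 and 3205 in Stag2-/- siGLO and 2266, 2481 and 2462 in Stag2-/- siStag1 counts. The Stag2-/- siStag1 libraries lay below all others. Slc6a6 fell in Stag2-/- siStag1 against wild-type siGLO (log2 fold change -0.52 ± 0.08, adjusted p = 0.000145) and against Stag2-/- siGLO (log2 fold change -0.31 ± 0.08, adjusted p = 0.0445), a call lost without Stag2-/- siGLO replicate 3 or Stag2-/- siStag1 replicate 3 (adjusted p up to 0.156). It was also called in Stag2-/- siGLO (log2 fold change -0.21 ± 0.08, adjusted p = 0.0846), with overlapping ranges, and this call was lost without wild-type siGLO replicate 2 or 3 or Stag2-/- siGLO replicate 1 or 2 (adjusted p up to 0.334).

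Slc6a11 encodes the GABA transporter GAT3. It entered the test through the Stag2-/- libraries, so that its differences from wild type and from Stag1-/- siGLO are a description. It went from 0.968 to 3.74 counts in wild-type siGLO to 4.23 to 21.6 in Stag2-/- siGLO and 7.89 to 27.0 in Stag2-/- siStag1 (log2 fold change 2.55 ± 0.72 and log2 fold change 3.03 ± 0.70). Replicate 1 was the lowest library of Slc6a11 in both, and in Stag1-/- siGLO it had 2.92 to 5.91 counts.

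Slc6a15, a branched-chain amino acid and proline carrier of neurons, had 195, 218 and 159.7 in wild-type siGLO, 189, 231 and 209.9 in wild-type siStag1, 179, 152 and 206 in Stag1-/- siGLO, 232, 445 and 362 in Stag2-/- siGLO and 198, 404 and 359 in Stag2-/- siStag1 normalized read counts. In both Stag2-/- conditions replicate 1 was within or close to the wild-type siGLO range and the other libraries above it. Slc6a15 rose in Stag2-/- siGLO (log2 fold change 0.86 ± 0.25, adjusted p = 0.0232), a call lost without Stag2-/- siGLO replicate 2 (adjusted p up to 0.122), and in Stag2-/- siStag1 (log2 fold change 0.75 ± 0.25, adjusted p = 0.0281), a call lost without wild-type siGLO replicate 3 or Stag2-/- siStag1 replicate 2 (adjusted p up to 0.139). It was lower in Stag1-/- siGLO than in Stag2-/- siGLO (log2 fold change -0.95 ± 0.25, adjusted p = 0.0153). For its 3 tested neighbours within 1 Mb the median was 1.93 on the log2 scale in Stag2-/- siGLO, with 2 of them called, and 2.52 in Stag2-/- siStag1, with 3 called, which is more than the change of Slc6a15 itself.

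The remaining Slc6 genes were mostly rare. Slc6a17, a vesicular carrier of neurons, was at 0.968 to 5.61 counts in wild-type siGLO and at 6.33 to 14.8, 11.6 to 23.7 and 12.8 to 23.3 in Stag1-/- siGLO, Stag2-/- siGLO and Stag2-/- siStag1, and had log2 fold changes of 1.86, 2.44 and 2.70. It entered the test through conditions other than wild-type siGLO, which makes these a description. Without wild-type siGLO replicate 1 they were 2.77, 3.35 and 3.61. The call in Stag1-/- siGLO was lost without wild-type siGLO replicate 2 or 3 or Stag1-/- siGLO replicate 1 or 2 (adjusted p up to 0.167). Slc6a14, a carrier of neutral and cationic amino acids, fell from 9.35 to 17.4 counts in wild-type siGLO to 3.17 to 5.39 in Stag2-/- siGLO (log2 fold change -1.57 ± 0.59, adjusted p = 0.0715), a call lost without wild-type siGLO replicate 2 or 3 or Stag2-/- siGLO replicate 1, 2 or 3 (adjusted p up to 0.195), and to 0 to 4.93 in Stag2-/- siStag1 (log2 fold change -2.72 ± 0.67, adjusted p = 0.00501). The last rests on 6 reads in 3 libraries, and without Stag2-/- siStag1 replicate 1 the log2 fold change was -4.47. Slc6a7, the brain proline carrier, was at 26.2 to 60.01 counts in wild-type siGLO and 5.20 to 14.2 in Stag2-/- siStag1 (log2 fold change -2.04 ± 0.42, adjusted p = 0.00134). Against Stag2-/- siGLO it fell as well (log2 fold change -1.39 ± 0.44, adjusted p = 0.0939), a call lost without Stag2-/- siGLO replicate 1, 2 or 3 or Stag2-/- siStag1 replicate 1 or 2 (adjusted p up to 0.299). Slc6a9, the glycine transporter GlyT1, was called nowhere.

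All 3 Slc43 genes were higher in Stag2-/- siStag1 than in wild-type siGLO. Slc43a1 and Slc43a2 encode LAT3 and LAT4, which let leucine and other large neutral amino acids pass in both directions, and Slc43a3 is known to carry purine nucleobases. Slc43a2 had 338, 369 and 376 in wild-type siGLO, 393, 425 and 385 in wild-type siStag1, 665, 633 and 526 in Stag1-/- siGLO, 652, 522 and 441 in Stag2-/- siGLO and 818, 713 and 679 in Stag2-/- siStag1 normalized read counts. Every library of the other 4 conditions lay above the wild-type siGLO range. Slc43a2 rose in Stag1-/- siGLO (log2 fold change 0.75 ± 0.14, adjusted p = 0.00136), in Stag2-/- siGLO (log2 fold change 0.58 ± 0.14, adjusted p = 0.00717) and in Stag2-/- siStag1 (log2 fold change 1.03 ± 0.14, adjusted p = 2.66e-05). It was higher in Stag2-/- siStag1 than in Stag2-/- siGLO (log2 fold change 0.45 ± 0.13, adjusted p = 0.0702), a call lost without Stag2-/- siGLO replicate 2 or 3 or Stag2-/- siStag1 replicate 1, 2 or 3 (adjusted p up to 0.228).

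Slc43a1 was at 293, 299.9 and 279.7 in wild-type siGLO, 367, 349.5 and 344 in wild-type siStag1, 372, 355 and 355 in Stag1-/- siGLO, 480.4, 399 and 386 in Stag2-/- siGLO and 516, 435 and 414 in Stag2-/- siStag1 counts. Wild-type siGLO held the lowest libraries here too, and in wild-type siStag1 the difference did not pass (log2 fold change 0.28 ± 0.11, adjusted p = 0.662). Slc43a1 rose in Stag2-/- siGLO (log2 fold change 0.54 ± 0.11, adjusted p = 0.00391) and Stag2-/- siStag1 (log2 fold change 0.65 ± 0.11, adjusted p = 0.000388). The call in Stag1-/- siGLO (log2 fold change 0.31 ± 0.11, adjusted p = 0.0831) was lost when any 1 of the 6 libraries was left out (adjusted p up to 0.193).

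Slc43a3 lies close to Slc43a1 on chromosome 2 (chr2:84936579-84958509 and chr2:84838850-84863594, mm10, plus strand). Its counts were 118, 95.6 and 92.9 in wild-type siGLO, 138, 103 and 104 in wild-type siStag1, 72.8, 49.6 and 70.5 in Stag1-/- siGLO, 89.9, 89.4 and 106 in Stag2-/- siGLO and 117, 186 and 168 in Stag2-/- siStag1. It was lowest in Stag1-/- siGLO and highest in Stag2-/- siStag1, where replicate 1 stood at the wild-type level. Slc43a3 fell in Stag1-/- siGLO (log2 fold change -0.67 ± 0.22, adjusted p = 0.0504), a call lost without wild-type siGLO replicate 1 or Stag1-/- siGLO replicate 2 (adjusted p up to 0.176), and rose in Stag2-/- siStag1 (log2 fold change 0.62 ± 0.21, adjusted p = 0.028), a call lost without Stag2-/- siStag1 replicate 2 (adjusted p up to 0.129). The rise against Stag2-/- siGLO (log2 fold change 0.72 ± 0.21, adjusted p = 0.0657) was lost without Stag2-/- siGLO replicate 1 or 2 or Stag2-/- siStag1 replicate 2 or 3 (adjusted p up to 0.256), and the difference between the knockouts (log2 fold change -0.56 ± 0.22, adjusted p = 0.0853) without Stag1-/- siGLO replicate 2 or 3 or Stag2-/- siGLO replicate 1, 2 or 3 (adjusted p up to 0.287). In the Slc36 family, Slc36a4, a carrier of proline and tryptophan, rose from 12.2 to 17.8 counts in wild-type siGLO to 23.7 to 53.6 in Stag2-/- siStag1 (log2 fold change 1.47 ± 0.34, adjusted p = 0.00283). It had 22.1 to 29.0 counts in wild-type siStag1, where the difference did not pass (log2 fold change 0.81 ± 0.35, adjusted p = 0.711). The proton-coupled lysosomal carrier Slc36a1 was called nowhere without the replicate block.

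**Figure D4:**
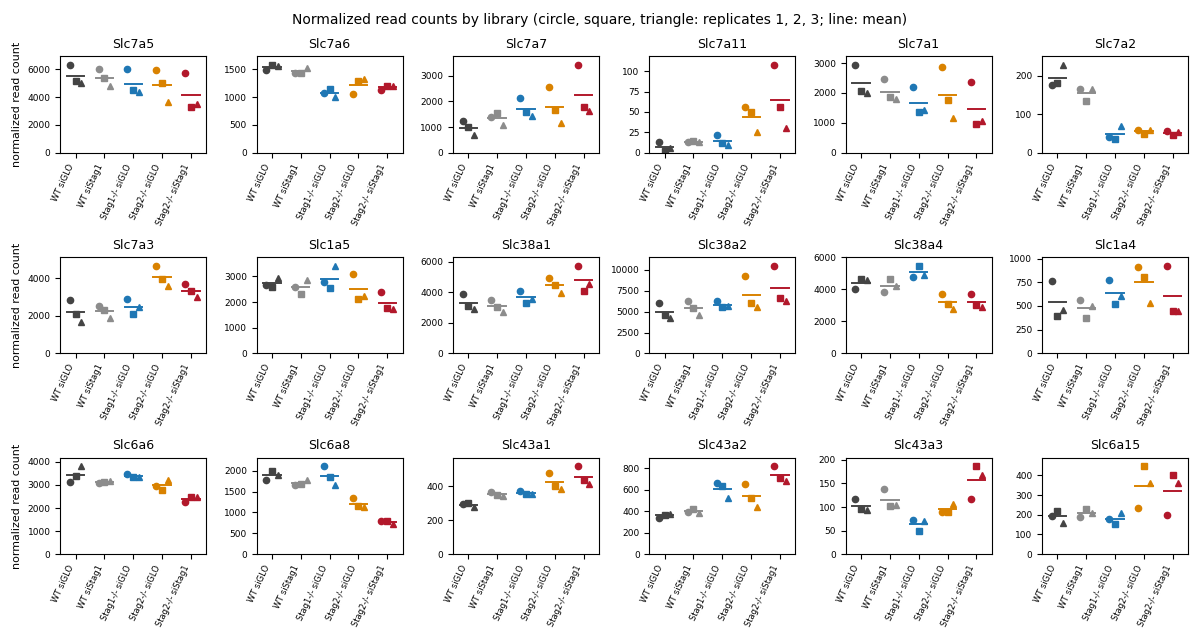
Normalized read counts of 18 transporter genes in each of the 15 libraries, with 1 panel per gene, linear axes from 0, the condition by position and colour, the replicate number by symbol and the mean as a line. Slc6a8 steps down from wild type to Stag2-/- siGLO to Stag2-/- siStag1, Slc7a2 is low in all knockout libraries, and replicate 1 (circles) is the highest of Slc1a4, Slc7a1, Slc7a3, Slc7a5, Slc38a1 and Slc38a2 in every condition.

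The knockdown of Stag1 in Stag2-/- cells was compared directly with Stag2-/- siGLO. Of the 39 genes tested, 7 were called, 4 higher (Slc1a2, given as a description, Slc1a3, Slc43a2 and Slc43a3) and 3 lower (Slc6a6, Slc6a7 and Slc6a8), where 6.37% of all genes tested were called. With the replicate number as a block, 14 were called, where 14.1% of all genes were, among them also Slc1a5, Slc38a5, Slc7a1 and Slc7a3 (lower) and Slc36a4 and Slc38a9 (higher), at adjusted p = 0.0663 to 0.0960 by edgeR. When only the libraries of both conditions entered the fit, Slc6a8 was the single call. Without Stag2-/- siGLO replicate 2, Stag2-/- siStag1 replicate 2 or Stag2-/- siStag1 replicate 3 there were 3 calls each, and without Stag2-/- siGLO replicate 3 there were 4. For these fits and the fit to both conditions alone no share of all genes is given, so their counts cannot be set against it. With replicate 2 left out of all 5 conditions edgeR called none of the 39 and 0.686% of all genes, with replicate 3 left out 1 and 1.17%, and with replicate 1 left out 9 and 8.69%. The effect of siStag1 in Stag2-/- cells minus that in wild-type cells was called for none of the 39 genes by edgeR or by DESeq2, with 3 at an unadjusted p under 0.05. Of all genes tested, 0.159% were called by edgeR.

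Stag1-/- siGLO and Stag2-/- siGLO were also compared directly, and 10 of the 39 genes were called, where 25.7% of all genes tested were. Slc1a1, Slc38a4, Slc38a10 and Slc6a8 were higher in Stag1-/- siGLO, and Slc38a5, Slc43a3, Slc6a11 (given as a description), Slc6a15, Slc7a3 and Slc7a11 were higher in Stag2-/- siGLO. With the replicate number as a block, Slc38a3, Slc6a6 and Slc6a7 (higher in Stag1-/- siGLO) and Slc38a1, Slc38a2, Slc38a6, Slc43a1 and Slc7a6 (higher in Stag2-/- siGLO) were called as well, at adjusted p = 0.0107 to 0.0982 by edgeR, which made 18, where 37.3% of all genes were called. The count was 6 without Stag1-/- siGLO replicate 2, and 2 with replicate 2 left out of all 5 conditions (4.60% of all genes), 5 with replicate 3 left out (18.1%) and 13 with replicate 1 left out (27.4%). Against wild-type siGLO, the count in Stag1-/- siGLO was 6 to 7 without wild-type siGLO replicate 1 or 2 or Stag1-/- siGLO replicate 2. No share of all genes is given for the fits that lacked a single library, so their counts cannot be set against it.

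Genes that work with these transporters were described by counts, with values for a few. Of 5 genes that make and use glutathione from cystine, 2 were called in Stag1-/- siGLO, 2 in Stag2-/- siGLO and 5 in Stag2-/- siStag1, where 20.0%, 28.3% and 43.9% of all genes were. Gclc and Gclm, the subunits of glutamate-cysteine ligase, rose in Stag2-/- siGLO (log2 fold change 0.45 ± 0.09 and 0.46 ± 0.13) and in Stag2-/- siStag1 (0.68 ± 0.09 and 0.37 ± 0.13). Gpx4, Gsr and Gss fell in Stag2-/- siStag1, and Gsr and Gss also in Stag1-/- siGLO. Of 16 amino acid response genes, 2 were called in Stag1-/- siGLO (Cebpb higher, Pycr1 lower), 4 in Stag2-/- siGLO (Asns, Ddit3, Phgdh and Pycr1, all lower) and 6 in Stag2-/- siStag1 (Cebpb higher, and Asns, Ddit3, Nupr1, Phgdh and Pycr1 lower). These are 12.5%, 25.0% and 37.5% of the list, below the 20.0%, 28.3% and 43.9% of all genes. Asns, the asparagine synthetase that amino acid shortage induces, was at 8353 normalized read counts in wild-type siGLO, 5942 in Stag2-/- siGLO and 3546 in Stag2-/- siStag1 (means, n = 3 libraries; log2 fold change -0.49 ± 0.15 and -1.24 ± 0.15).

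Of 19 genes of amino acid sensing by mTORC1, 3 were called in Stag1-/- siGLO, all higher, 5 in Stag2-/- siGLO, 4 of them higher, and 10 in Stag2-/- siStag1, 8 of them higher. The shares, 15.8%, 26.3% and 52.6%, are near those of all genes. Rragd and Rragb encode Rag GTPases that bring mTORC1 to the lysosome. Rragd was at means of 508 normalized read counts in wild-type siGLO, 1194 in Stag1-/- siGLO, 2486 in Stag2-/- siGLO and 3046 in Stag2-/- siStag1 (log2 fold change 1.23 ± 0.18, 2.29 ± 0.18 and 2.58 ± 0.18), and Rragb rose as well (0.41 ± 0.12, 1.13 ± 0.12 and 1.17 ± 0.12). Of 12 tested heavy chains and other amino acid carriers, 3, 3 and 4 were called in the same order, all lower, or 25.0%, 25.0% and 33.3%, also near or below those of all genes. Slc25a13 and Slc25a15, mitochondrial carriers of aspartate with glutamate and of ornithine, and the peptide carrier Slc15a2 were among them in each.

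The other 18 transporter genes did not pass the filter. Slc6a18, Slc7a12 and Slc7a13 had no read in any library. A count of 0 in a library allows up to 3 reads, or 0.157 to 0.2002 CPM. The highest count in any library was 13 for Slc7a10, 9 for Slc6a4, Slc6a13 and Slc7a14, 8 for Slc38a8, 7 for Slc6a2 and Slc6a3, 6 for Slc36a2, 5 for Slc6a19, Slc36a3, Slc6a12 and Slc6a5, 4 for Slc1a7 and Slc7a15, 1 for Slc38a11. Among them are the carriers of serotonin (Slc6a4), dopamine (Slc6a3) and noradrenaline (Slc6a2), the glycine carrier GlyT2 (Slc6a5), the GABA and betaine carriers Slc6a13 and Slc6a12, the kidney and gut carriers Slc6a19 and Slc7a13, and Slc1a7, a glutamate carrier of the retina.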

How the data were processed

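Raw read counts per gene were deposited by the authors for 15 libraries, made with STAR from polyA RNA-seq reads of 150 bp aligned to mm10. The counting tool, the annotation and the strand setting are not given in the sources used here. The files also hold 4 summary lines, which were left out of library sizes and tests. As a share of each library's lines they came to 4.01 to 4.79% unmapped, 3.80 to 4.50% multimapping, 9.78 to 13.0% without a feature and 1.92 to 2.08% ambiguous.

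The test was the quasi-likelihood F test of edgeR 4.0.16 (R 4.3.3), two-sided, on counts scaled with TMM. One model held the 15 libraries with a mean for each condition. Genes were kept with filterByExpr, set to a count of 10 and a total of 15, and p-values were adjusted by Benjamini-Hochberg over the 14508 genes kept, with a threshold of 0.1. The SE is the size of the log2 fold change divided by the square root of F. Levels per kilobase used the exons of GENCODE M21 on mm10, and promoters came from RefSeq on GRCm38.p6. The scripts were tested on simulated data.

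The genes, gene lists, markers and tests were chosen with earlier results of these data known. Every tested gene is named except 1, which is counted but not reported here. Values of all libraries are given for genes called in 2 or more of the 4 comparisons with wild-type siGLO, or called in any comparison with a log2 fold change beyond 1, with a mean normalized read count of at least 50, and for Slc7a5, Slc7a11, Slc7a1, Slc38a2, Slc1a5, Slc1a4 and Slc3a2. The alternatives were a fit with DESeq2 1.42.0, edgeR with the size factors of DESeq2 or unscaled library sizes, tests without the filter or with 10 counts required in every library, fits to the compared conditions alone, a threshold of 0.05, lengths of the longest transcript, the replicate number as a block, and fits that each lacked 1 library. Fits in which all 5 conditions lacked the same replicate number were added after the data were seen.

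The replicate numbers come from the sample labels. Deviations from the condition means over 14508 genes correlated with r = 0.112 to 0.368 between same-numbered libraries of wild-type siStag1 and wild-type siGLO, 0.235 to 0.602 for Stag2-/- siStag1 and Stag2-/- siGLO, and 0.159 to 0.227 for Stag1-/- siGLO and Stag2-/- siGLO (3 pairs each). Counts and calls gained with the replicate block are printed for these and for the other comparisons with wild-type siGLO. Values not marked with the block come from fits without it. In the other comparisons with wild-type siGLO, 1 pair in each was under 0.1. No pair of libraries within a condition agreed within counting noise.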

Additional observations from a re-analysis of the deposited data

How the results depend on the processing

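Counts of called genes depended most on which replicates entered the fit. With replicate 2 left out of all 5 conditions, an alternative chosen after seeing the data, 3 genes were called in Stag1-/- siGLO against wild-type siGLO (12 with all libraries), 3 in Stag2-/- siGLO (21), 0 in Stag2-/- siStag1 against Stag2-/- siGLO (7) and 2 in Stag1-/- siGLO against Stag2-/- siGLO (10). With replicate 3 left out they were 7, 11, 1 and 5. These fits have 2 libraries per condition, and the cause was not tested. The count in Stag2-/- siStag1 against wild-type siGLO (27) stayed within 1.5 times under all alternatives run, at 18 to 31, and that in Stag2-/- siGLO did so under the others, at 14 to 25. Apart from fits with the replicate block, these ranges and the counts below have no share of all genes given. They cannot be set against the loss of calls over all genes. In Stag1-/- siGLO, 7 genes were called at an adjusted p under 0.05 and 6 to 10 with 1 library left out. In Stag2-/- siStag1 against Stag2-/- siGLO, 1 was called with the libraries compared alone, 4 at an adjusted p under 0.05 and 3 to 10 with 1 library left out. In Stag1-/- siGLO against Stag2-/- siGLO, 6 were called among genes with at least 10 counts in every library and 6 to 10 with 1 library left out. With the replicate block the last pair of counts rose to 14 and 18, and those in Stag1-/- siGLO, Stag2-/- siGLO and Stag2-/- siStag1 against wild-type siGLO to 15, 24 and 30. The calls gained against wild-type siGLO were Slc38a2, Slc38a3 and Slc7a1 in Stag1-/- siGLO (adjusted p = 0.0679, 0.0335 and 0.0222, edgeR), Slc1a4, Slc38a2 and Slc7a1 in Stag2-/- siGLO (0.0269, 0.00156 and 0.0941), and Slc36a1, Slc7a1 and Slc7a5 in Stag2-/- siStag1 (0.0329, 0.000554 and 0.00313). In these comparisons 1 same-numbered pair in each correlated under 0.1, so that equal numbers are not shown to pair all libraries. Over all conditions, though, the mean r was 0.197 for same-numbered pairs and -0.0969 for other pairs. Of the 15 libraries, 13 correlated best, on average, with their own number.

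Over 1536 refitted log2 fold changes of single genes, 1287 kept direction and side of the threshold, 210 lost the call, 27 gained it and 12 changed sign, and 82 of the lost calls came from leaving replicate 2 or 3 out of all conditions. Among these the block lost no call and gained 7. The 12 had no call in either fit. With 1 library left out, log2 fold changes ran from -0.041 to 0.18 for Slc1a5 in Stag1-/- siGLO, from -0.34 to 0.0054 for Slc7a5 in Stag2-/- siGLO, from -0.22 to 0.11 for Slc3a2 in Stag2-/- siGLO, from -0.36 to 0.16 for Slc1a4 in wild-type siStag1, from -0.35 to 0.00021 for Slc7a1 in wild-type siStag1, from -0.12 to 0.078 for Slc7a5 in wild-type siStag1 and from -0.26 to 0.51 for Slc1a4 in Stag2-/- siStag1. With replicate 3 left out of all conditions Slc3a2 in Stag2-/- siGLO was at 0.11, and with replicate 1 left out Slc1a4 in wild-type siStag1 was at 0.035. The cause of these changes was not tested. Slc7a11 and Slc6a11 rest on few reads in wild-type siGLO, and their fold changes against it have SEs above 0.5.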

Other observations

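In 6 of the 39 tested transporter genes (15.4%; Slc1a4, Slc38a1, Slc38a2, Slc7a1, Slc7a3 and Slc7a5) replicate 1 was the highest library in all 5 conditions, against 6.58% of all 14508 genes tested. This was seen after the values were known and is a description. Slc38a3 was the single transporter gene with replicate 1 lowest in all 5. Among 16 amino acid response genes, replicate 1 was highest throughout for Aldh18a1, Atf5 and Sesn2 and lowest throughout for Cebpg and Ddit4. The labels do not say whether libraries with the same number were grown or handled together.

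The ratio of the per-kilobase level of Slc43a3 to that of its neighbour Slc43a1, chosen after the values were seen, was 0.408 to 0.515 in the wild-type siGLO libraries, 0.377 to 0.480 in wild-type siStag1, 0.179 to 0.254 in Stag1-/- siGLO, 0.240 to 0.350 in Stag2-/- siGLO and 0.291 to 0.548 in Stag2-/- siStag1.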
